A study of Mus musculus with 10 samples.

Results

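Pre-mRNA splicing removes introns from nuclear transcripts, and the proteins that carry it out were examined here in mouse cerebral cortex as 56 genes out of the 12393 genes that had an array probe set assigned to a single gene. The 56 genes were chosen by symbol: those starting with Srsf or Sfrs (SR proteins), Hnrnp or Hnrp (hnRNP proteins), Sf3a or Sf3b, Snrp, Prpf (other than Prpf4b) or U2af. They comprised 18 hnRNP genes, 9 SR genes, 9 SF3A and SF3B genes, 9 PRP genes, 8 Snrp genes and 3 U2AF genes, read by 135 probe sets. Each gene was represented by the probe set with the highest mean over the 10 arrays, and its other probe sets were set beside it. Each animal had its own array, of which 5 carried the label p97FE65 wild type and 5 the label p97FE65 null, all from the cerebral cortex of male mice aged 6 months that came as littermate pairs. The null mice lack the full-length form of FE65, an adaptor protein that binds the tail of the amyloid precursor protein, through a targeted allele of the gene Apbb1. The allele was made in embryonic stem cells of another inbred strain and moved onto C57Bl/6J by repeated backcrossing, and by the study's account the null mice still carried sequence of the donor strain around the targeted gene. The deletion is not limited to any cell type.

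The spliceosome assembles on each intron from small nuclear ribonucleoproteins (snRNPs), each an RNA held by a ring of Sm proteins with further proteins bound to it. U2AF recognises the 3′ end of the intron, the SF3A and SF3B complexes of the U2 snRNP settle at the branch point, and PRP factors belong to the U1, U4, U5 and U6 particles or drive the later rearrangements. SR proteins bind exons and usually promote their inclusion, whereas hnRNP proteins coat the pre-mRNA and often oppose it, so that the balance between them helps set which exons neurons retain. Many of these genes regulate their own transcripts through unproductive splicing or introns that are kept in the nucleus.

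All values are on a log2 scale, so a difference of 1 is a doubling, and every difference is labelled null minus labelled wild type. The sign needs a caution. For Gprc5b, the gene on which the study centred, probe set 1451411_at ran from 7.07 to 7.74 on the arrays labelled wild type and from 4.71 to 6.92 on those labelled null, a difference of -1.23 (SE 0.36), whereas the study's own tables list that probe set as up-regulated in null mice. The study's RT-PCR with primers overlapping that probe set was also higher in forebrains of null mice. Directions below follow the labels on the arrays and are therefore opposite to the study's for that gene. If the array labels were exchanged, every sign below would reverse, and this was not tested. Both probe sets of Apbb1 lie outside the deleted exon and check no label.

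No splicing factor gene differed between the groups past a limma p adjusted over all 22626 probe sets (0 of 56, background 0.0% of 12393 genes), and the lowest adjusted p among the 56 was 0.999. At an unadjusted limma p under 0.05, 2 of 56 genes were lower in the arrays labelled null (3.57%, against 2.61% of all genes) and 0 of 56 were higher (against 1.33% of all genes). A share of 3.57% is near the background. The 2 genes were Prpf39 and Prpf40b. Over all 135 probe sets, 4 were lower at that threshold (2.96%, against 2.43% of all probe sets) and 0 were higher (against 1.24%), which added a second probe set of Hnrnpu and a dim one of Hnrnpa1. The groups did not overlap for 0 of the 56 genes (background 0.686%) and for 1 of the 135 probe sets (background 0.623%), the Hnrnpu probe set.

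The differences were small and mostly on the negative side. Their median over the 56 genes was -0.07, with 40 genes below 0 and 16 above, and quantile normalization of the values brought it to -0.015 with 32 of 56 genes below 0. That sign is shared with other genes of similar signal: the median was 0.00 over all 12393 genes but -0.04 over the 4921 genes with a mean of at least 5, of which 65.1% lay below 0. Among the 48 splicing factor genes with a mean of at least 5, the median was -0.06 and 66.7% lay below 0. In that brighter range 1 of 48 genes, Prpf39, was lower at an unadjusted limma p under 0.05, beside 5.2% of all genes of that range. For 44 of the 56 genes the 95% interval of the difference lay inside a 1.4-fold change in either direction, and no probe set of the family had a difference beyond 1.4-fold. The plot of differences by gene shows the 56 estimates with their intervals.

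**Figure D1:**
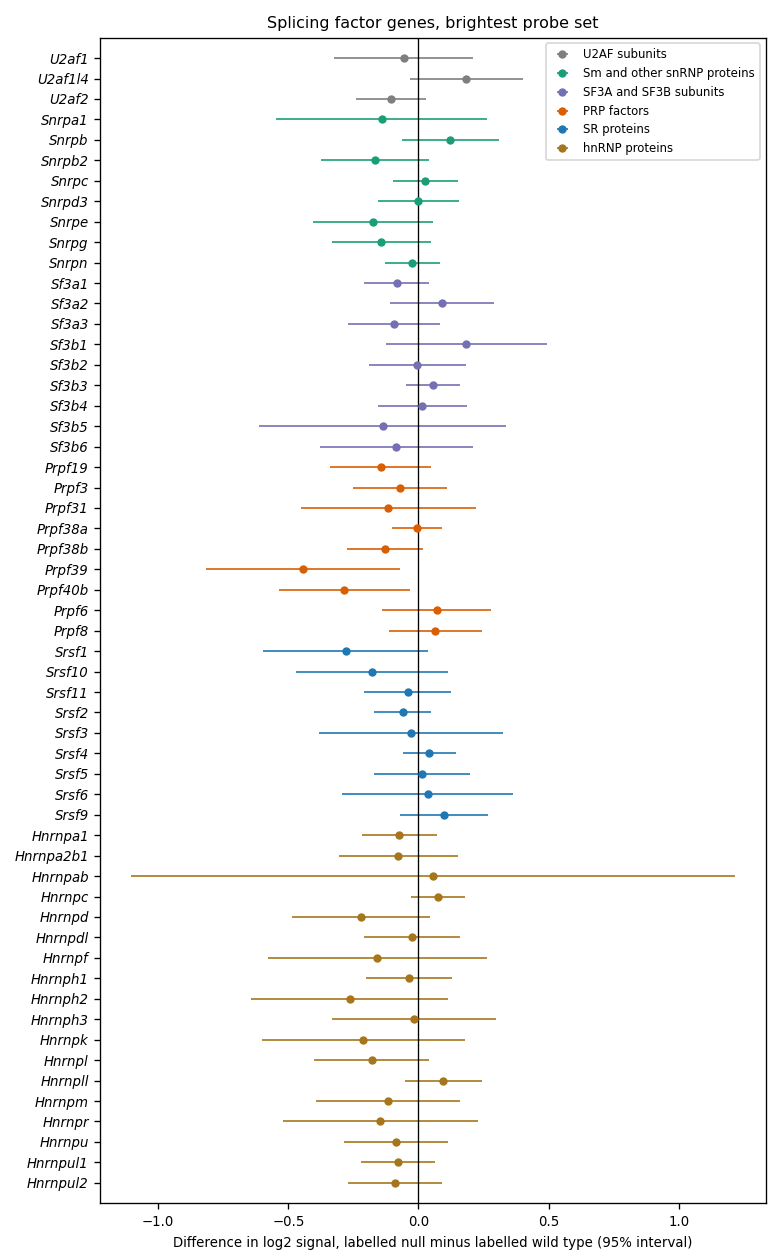
Difference in log2 signal (labelled null minus labelled wild type, 5 arrays each) for the brightest probe set of each of the 56 genes, coloured by role, with limma 95% intervals. The intervals of Prpf39 and Prpf40b alone leave out 0, and the interval of Hnrnpab, from -1.11 to 1.22, is the widest.

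Promoter letters, which the symbols did not use, were counted in the same genes. RefSeq promoter windows on GRCm38.p6, 250 bases before to 50 bases after a transcription start, were at hand for 50 of the 56 genes as 70 windows (Hnrnpll, Hnrnpul2, Sf3b4, Sf3b5, Snrpb and U2af2 had no entry). On either strand, the GC box GGGCGG stood in 62.9% of the 70 windows and 35.7% of all 32851 windows, and CCAAT in 35 of the 70 and 37.4% of all. The ETS core CCGGAAG stood in 32.9% and 8.86%, and TGCGCA, the core of the NRF1 site, in 30.0% and 7.76%. The E-box CACGTG stood in 11.4% and 7.15%, and TATAAA in 8.57% and 13.6%. No motif in this set contains another, windows of a gene can share bases, and a match is a description of letters and not a site in use.

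The windows of Prpf39, Hnrnpu and Hnrnpab are printed because the results turned on these genes: Prpf39 with the lowest p of the 56 genes, Hnrnpu with the probe set that separated the groups, and Hnrnpab with the widest spread between animals. Each runs 5′ to 3′ on the gene's strand with matches to those 6 motifs, on either strand, in capitals. The windows are chr12:65036084-65036383 on the plus strand for Prpf39, chr1:178337766-178338065 on the minus strand for Hnrnpu and chr11:51606832-51607131 on the minus strand for Hnrnpab. They differ in content: Prpf39 holds a GC box, an E-box and an NRF1 core, Hnrnpu holds 4 GC boxes, and Hnrnpab holds a GC box, 3 CCAAT boxes and a TATA box.
Prpf39: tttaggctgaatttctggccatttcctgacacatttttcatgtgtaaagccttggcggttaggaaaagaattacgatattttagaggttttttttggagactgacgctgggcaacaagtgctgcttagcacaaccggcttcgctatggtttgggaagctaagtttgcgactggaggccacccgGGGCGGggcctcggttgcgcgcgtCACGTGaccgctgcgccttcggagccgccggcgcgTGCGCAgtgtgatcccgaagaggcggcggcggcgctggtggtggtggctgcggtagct
Hnrnpu: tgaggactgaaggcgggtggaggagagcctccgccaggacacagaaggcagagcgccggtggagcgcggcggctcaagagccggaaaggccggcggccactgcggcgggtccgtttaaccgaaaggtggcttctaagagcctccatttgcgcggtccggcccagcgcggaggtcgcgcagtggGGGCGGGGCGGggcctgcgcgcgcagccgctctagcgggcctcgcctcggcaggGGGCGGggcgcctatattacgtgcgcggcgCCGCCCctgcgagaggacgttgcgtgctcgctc
Hnrnpab: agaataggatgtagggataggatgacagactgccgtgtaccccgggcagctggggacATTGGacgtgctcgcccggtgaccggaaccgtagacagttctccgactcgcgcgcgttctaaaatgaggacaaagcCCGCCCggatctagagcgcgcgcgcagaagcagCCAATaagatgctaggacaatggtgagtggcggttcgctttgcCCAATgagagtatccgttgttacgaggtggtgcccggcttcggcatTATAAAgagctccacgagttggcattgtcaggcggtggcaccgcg

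The PRP factors held the most negative median of the 6 roles, -0.12 over 9 genes, with 7 genes below 0. At an unadjusted limma p under 0.05, 2 of 9 were lower, beside 2.61% of all genes. Among all genes with a mean of at least 5 that share was 5.2%. The 2 genes, Prpf39 and Prpf40b, are the only lower ones of the whole family, and Prpf40b has a mean under 5. Whether this role differs from the others was not tested. Prpf39 encodes a factor that helps the U1 snRNP, the particle that marks the 5′ end of the intron, engage its splice site. Its brightest probe set, 1428172_at, read 7.41, 8.03, 7.77, 7.61 and 7.69 on wild type arrays 1 to 5. On null arrays 1 to 5 it read 7.24, 7.45, 7.73, 6.80 and 7.07. Null arrays 4 and 5 were the lowest of the 10 and wild type array 2 the highest, and the groups overlapped through null arrays 2 and 3. The difference was -0.44 (SE 0.17, limma p = 0.0239, adjusted p = 0.999), a 1.36-fold lower mean, and the exact two-sided permutation test of the same 10 values gave p = 0.0635. Leaving out null array 4, null array 5 or wild type array 2 ends the unadjusted call, with differences between -0.56 and -0.33 over the 10 fits that leave out an array. Array weights end it too, with a difference of -0.32, and they end the call of Prpf40b.

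The other 2 probe sets of Prpf39 gave smaller differences. Probe set 1428171_at had a difference of -0.21 (SE 0.15, exact permutation p = 0.246), and null arrays 4 and 5, at 6.41 and 6.19, were again its lowest. Probe set 1452688_at had a difference of -0.04 (SE 0.20), with null array 5 at 3.44 and the other 9 arrays between 4.26 and 4.75. A low reading on null array 5 was thus common to the 3 probe sets.

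Prpf40b, a WW-domain protein that binds the U1 particle and the branch point protein, was read by 1 probe set, 1419512_at. It gave 5.06, 4.80, 4.41, 4.53 and 4.56 on the wild type arrays and 4.28, 4.40, 4.42, 4.29 and 4.56 on the null arrays. Wild type arrays 1 and 2 were the highest, and the other 3 wild type arrays lay within or next to the null range. The difference was -0.28 (SE 0.11, limma p = 0.0311, adjusted p = 0.999, exact permutation p = 0.0556). The unadjusted call ends without wild type array 1 or 2 or without null array 1, 2 or 4. The gene's mean of 4.53 is below 5, so that it is not counted among the brighter genes.

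Among the other PRP genes, Prpf19, the ubiquitin ligase of the Prp19 complex, had a difference of -0.15 (SE 0.09) and ran from 10.25 to 10.46 in wild type and from 9.89 to 10.32 in null arrays. Prpf6, a bridge within the tri-snRNP, differed by 0.07 (SE 0.09). Prpf31, a U4 snRNP protein known for its role in inherited retinal degeneration, differed by -0.12 (SE 0.15). None of these 3 passed an unadjusted limma p under 0.05. The 4 remaining genes of the role, Prpf3, Prpf8, Prpf38a and Prpf38b, differed by -0.13 to 0.07, and Prpf8, the scaffold of the catalytic core, by 0.07 (SE 0.08). Prpf3, Prpf38a and Prpf40b were the 3 genes of the role with a mean under 5.

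The hnRNP genes were the largest role, and 15 of 18 lay below 0 with a median of -0.08, but 0 of 18 passed an unadjusted limma p under 0.05 by the brightest probe set. Hnrnpu encodes a nuclear scaffold protein that binds RNA and chromatin, and it had 5 probe sets, all with a negative difference. The brightest, 1423050_s_at, differed by -0.09 (SE 0.09, exact permutation p = 0.365). Probe set 1450849_at read 10.06, 9.96, 10.35, 9.95 and 9.83 on the wild type arrays and 9.81, 9.49, 9.48, 9.72 and 9.72 on the null arrays. Every null array was below every wild type array, though the closest values, 9.83 and 9.81, nearly touched. The difference was -0.38 (SE 0.10, limma p = 0.00347, adjusted p = 0.999), a 1.30-fold lower mean, and the exact two-sided permutation p of 0.00794 is the smallest that 5 against 5 arrays can give. It stayed between -0.43 and -0.30 when each array was left out in turn.

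The remaining Hnrnpu probe sets were less separated. Probe set 1434390_at differed by -0.34 (SE 0.16, exact permutation p = 0.111) and was lowest on null arrays 4 and 5, at 6.89 and 6.54, beside 7.22 to 7.68 in wild type. Probe sets 1434391_at and 1423051_at differed by -0.17 (SE 0.12) and -0.11 (SE 0.06). The plot of Prpf39 and Hnrnpu probe sets shows that 1450849_at alone separates the groups.

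**Figure D2:**
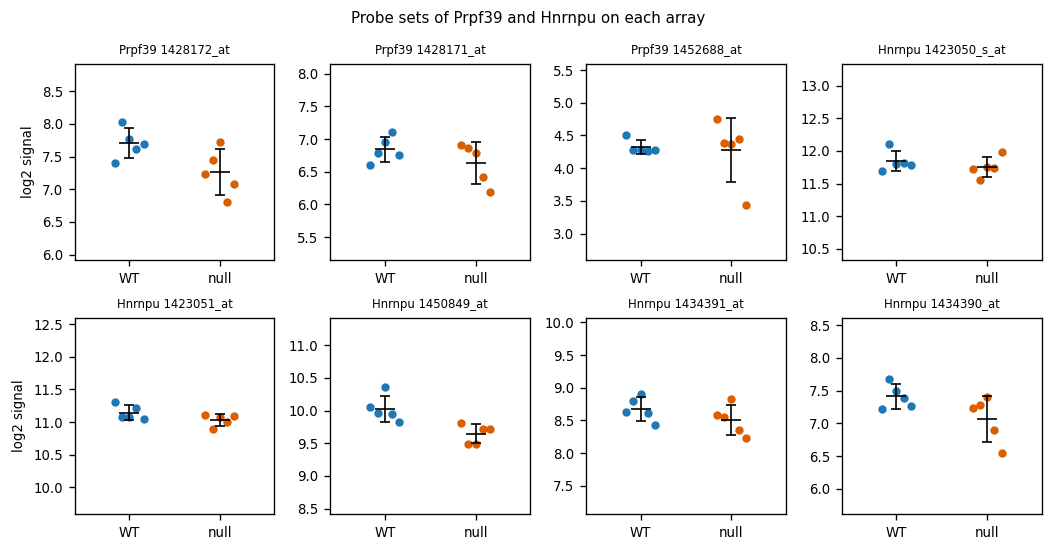
log2 signal of the 3 Prpf39 and 5 Hnrnpu probe sets, with points for the 5 arrays of each group in replicate order from left to right, the mean as a horizontal line and whiskers of 1 SD. All panels span the same height on the log2 axis, and the points of Hnrnpu 1450849_at are the only ones whose groups do not overlap (9.83 and above in wild type, 9.81 and below in null).

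To ask whether probe sets of a gene moved unequally, each of 79 further probe sets of 35 genes was expressed relative to the brightest probe set of its gene on the same array. Over the whole array 7987 such pairs were tested, 0 passed an adjusted limma p of 0.05, and 3.33% had an unadjusted p under 0.05. Of the 79 splicing factor pairs, 1 did (1.27%): Hnrnpu 1450849_at relative to 1423050_s_at differed by -0.30 (SE 0.13, limma p = 0.043, adjusted p = 0.974, exact permutation p = 0.0794). The differences of the 79 pairs ran from -0.34 to 0.40. In 65 of 79 the further probe set had the same sign as the brightest one, a share that was not counted over all 7987 pairs. Most signs were negative to begin with: 76.3% of the 135 splicing factor probe sets lay below 0.

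Of the pairs with the next smallest p, Hnrnpdl 1428225_s_at, a probe set of the hnRNP D-like protein, differed from its brightest partner by -0.33 (SE 0.17). It stood at 6.05 on wild type array 2 and between 4.77 and 5.33 on the other 9 arrays. Hnrnpa2b1 encodes a protein known for carrying mRNAs along oligodendrocyte and neuronal processes, and its 1433829_a_at differed from its partner by -0.27 (SE 0.16), with null arrays 4 and 5 lowest at 9.30 and 9.46. Sf3b1 1418561_at, Srsf10 1449121_at, Srsf2 1427816_at, Snrpb2 1452131_at and Prpf39 1452688_at had pair differences of -0.34, 0.15, 0.17, 0.17 and 0.40, none with an unadjusted limma p under 0.05. Srsf2 1427816_at, Snrpb2 1452131_at and Prpf39 1452688_at had means under 5, at 2.27, 1.73 and 4.30.

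Hnrnpab, the CArG box-binding hnRNP A/B protein, varied most between animals. Its brightest probe set, 1426114_at, read 9.72, 11.69, 12.01, 10.89 and 11.11 on the wild type arrays. On the null arrays it read 9.73, 11.82, 11.21, 10.65 and 12.29. The replicate 1 arrays of both groups were lowest, 2.57 below the highest array on the log2 scale, and the difference between groups was 0.06 (SE 0.52, 95% interval -1.11 to 1.22). The gene's other probe sets did not share that spread: 1455855_x_at spanned 0.81 over the 10 arrays and 1415914_at from 9.18 to 9.46. Of the 135 splicing factor probe sets, 15 (11.1%) had the 2 replicate 1 arrays as their lowest, or 9.71% of the 103 with a mean of at least 5, beside 8.36% of all probe sets of that brightness.

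**Figure D3:**
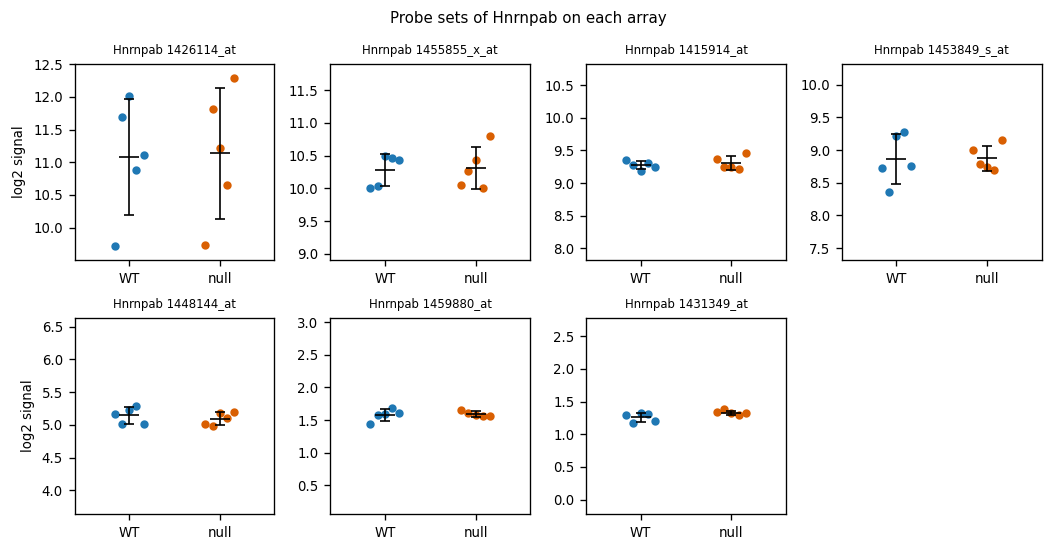
log2 signal of the 7 Hnrnpab probe sets, with points for the 5 arrays of each group in replicate order from left to right, the mean as a horizontal line and whiskers of 1 SD. The first panel, 1426114_at, runs from 9.72 to 12.01 in wild type and from 9.73 to 12.29 in null, whereas 1415914_at stays between 9.18 and 9.46.

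Hnrnpdl and Hnrnpk, with Hnrnpu the brightest genes of this role, differed by -0.02 (SE 0.08) and -0.21 (SE 0.18). Hnrnpk, the poly(C)-binding hnRNP, read 11.72, 12.57, 12.18, 12.37 and 12.37 in wild type and 11.82, 12.02, 12.10, 11.72 and 12.50 in null arrays, so that wild type array 1 and null array 4 shared the low end. Hnrnpf, a binder of G-rich tracts, read 8.97 on wild type array 1 and 9.83 to 10.04 on the other 4, beside 9.32 to 9.89 in null. Its difference was -0.16 (SE 0.19, exact permutation p = 0.508), and without wild type array 1 it was -0.35 and past an unadjusted limma p of 0.05. The adjusted limma p was then 0.919, and 4.15% of all genes were lower at the unadjusted threshold, against 2.61% with all arrays. Whether Hnrnpf passed the unadjusted threshold was thus decided by 1 wild type array. Over the 18 hnRNP genes the differences ran from -0.26 for Hnrnph2 to 0.10 for Hnrnpll. Hnrnpc, a core protein of the hnRNP particle, was among the steadiest, with 11.00 to 11.15 in wild type and 11.06 to 11.20 in null arrays, a difference of 0.07 (SE 0.05). These 3 were named after their values were seen.

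The SR genes were balanced, with 5 below 0 and 4 above, a median of -0.03, and 0 of 9 at an unadjusted limma p under 0.05. The 3 brightest were Srsf5, Srsf11 and Srsf6, which differed by 0.01 (SE 0.08), -0.04 (SE 0.08) and 0.04 (SE 0.15). Srsf6 read 9.64 on wild type array 1 and 10.53 on wild type array 2, and its null arrays, from 9.82 to 10.25, lay inside that range. Srsf1, the founding member of the family, was picked out after its values were seen because its difference was the most negative of the role. It read 9.47, 10.22, 9.96, 10.06 and 9.75 in wild type and 9.58, 9.68, 9.63, 9.30 and 9.88 in null arrays, a difference of -0.28 (SE 0.14, limma p = 0.079, exact permutation p = 0.127). All 6 probe sets of Srsf1 had a negative difference, from -0.28 to -0.11, and the groups overlapped in each. At the other end of the role stood Srsf9, at 0.10 (SE 0.08).

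The SF3A and SF3B genes had a median difference of 0.00, with 5 below 0 and 4 above and 0 of 9 past the unadjusted threshold. Sf3b1, the subunit that clamps the branch point, had the highest positive value of the 56 genes, 0.18 (SE 0.14, exact permutation p = 0.286). It read 9.61, 9.64, 10.28, 9.92 and 10.23 in wild type and 9.85, 10.23, 10.19, 10.11 and 10.21 in null arrays. Wild type arrays 1 and 2 were the low ones, while its probe set 1418561_at was highest on wild type array 2 and differed by -0.15 (SE 0.19). Sf3b2 and Sf3a2, the other bright subunits, differed by 0.00 (SE 0.08) and 0.09 (SE 0.09). Sf3b5, a small subunit of SF3B, was dim and stood at 4.55 on wild type array 2 beside 3.39 to 3.96 on the other arrays. The 5 remaining subunits, Sf3a1, Sf3a3, Sf3b3, Sf3b4 and Sf3b6, differed by -0.10 to 0.06.

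The Snrp genes had a median difference of -0.08, with 6 below 0, 2 above and 0 of 8 past the unadjusted threshold. Snrpd3, Snrpg and Snrpe, members of the Sm ring, were the brightest and differed by 0.00 (SE 0.07), -0.14 (SE 0.09) and -0.17 (SE 0.10). Both Snrpg and Snrpe were highest among the null arrays on null array 5, at 9.89 and 9.30, within the wild type range. Without that array their unadjusted limma p values were 0.0204 and 0.0208, both with an adjusted limma p of 0.661. In that fit 5.96% of all genes were lower at an unadjusted limma p under 0.05, against 2.61% with all arrays. Snrpb, which also belongs to the Sm ring, had the most positive value of the role, 0.12 (SE 0.08). The 3 U2AF genes gave 0.18 (SE 0.10) for U2af1l4, -0.11 (SE 0.06) for U2af2 and -0.06 (SE 0.12) for U2af1, with 0 of 3 past the unadjusted threshold. U2af1l4, a relative of the small subunit, read 7.35 on wild type array 2 and from 7.72 to 7.79 on the other wild type arrays, beside 7.73 to 8.09 in null.

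Because donor strain sequence flanked the targeted gene, the members on chromosome 7 were examined as a group. There were 7: U2af1l4, U2af2, Hnrnpl, Hnrnpul1, Prpf31, Snrpa1 and Snrpn. The study typed donor sequence at Homer2 and at Gprc5b, on either side of the targeted gene, and did not map where the retained stretch ends. In the gene order of the RefSeq annotation of GRCm38.p6, 0 of the 7 lay between these genes and all 7 preceded Homer2, so whether any of them carried donor sequence is not known here. Hnrnpl and Hnrnpul1 differed by -0.18 (SE 0.10) and -0.08 (SE 0.06), and Snrpa1, the U2 A′ protein, by -0.14 (SE 0.18). The probe set annotated to Snrpn alone was dim, with a mean of 2.55, and differed by -0.02 (SE 0.05). None of the 7 passed an unadjusted limma p under 0.05.

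The median level of the family moved from animal to animal within both groups. The median deviation of the 56 genes from their 10-array mean was -0.08, 0.16, 0.01, 0.04 and 0.00 on wild type arrays 1 to 5. On null arrays 1 to 5 it was -0.07, -0.05, 0.01, -0.09 and 0.11. Wild type array 2 was the highest of the 10 arrays for 19 of 56 genes (33.9%, beside 23.8% of all genes with a mean of at least 5), and null array 4 was the lowest for 19 of 56 (33.9%, beside 20.4%). The median over all genes of that brightness was 0.06 on wild type array 2, -0.06 on null array 4 and 0.11 on null array 5. Each had the sign of the family's median on that array. The 56 genes include 8 with a mean under 5. At an unadjusted limma p under 0.05, 0 splicing factor genes were lower without wild type array 2 or without null array 4. The shares of all genes were then 1.99% and 1.83%, against 2.61% with all arrays. Without wild type array 1, 6 of the 56 genes were lower, beside 4.15% of all genes. The heat map shows the deviations by gene, and the plot of array medians shows them as medians.

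**Figure D4:**
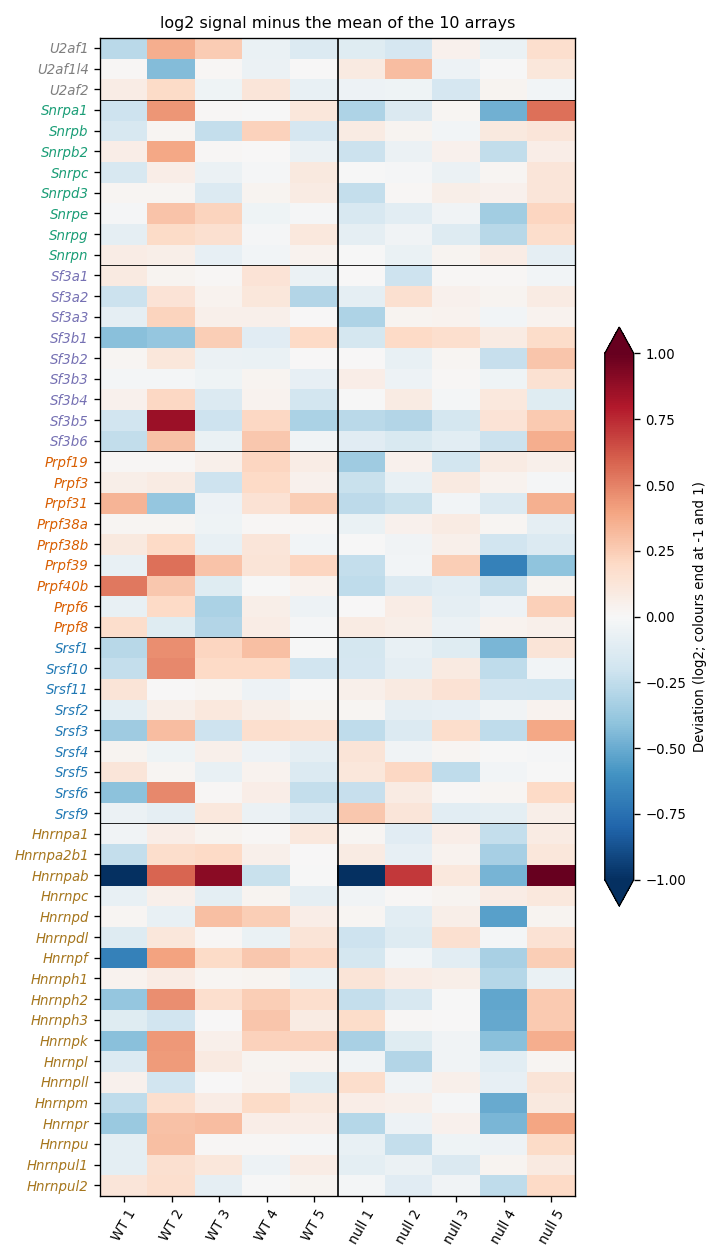
Deviation of each of the 56 genes (rows, grouped by role with labels coloured by role) from its own mean over the 10 arrays (columns), in log2 units, with red above and blue below the mean. The columns of wild type array 2 and null array 5 are mostly red and that of null array 4 mostly blue. The Hnrnpab row runs past the low end of the colour scale on the replicate 1 arrays and past the high end on null array 5.

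**Figure D5:**
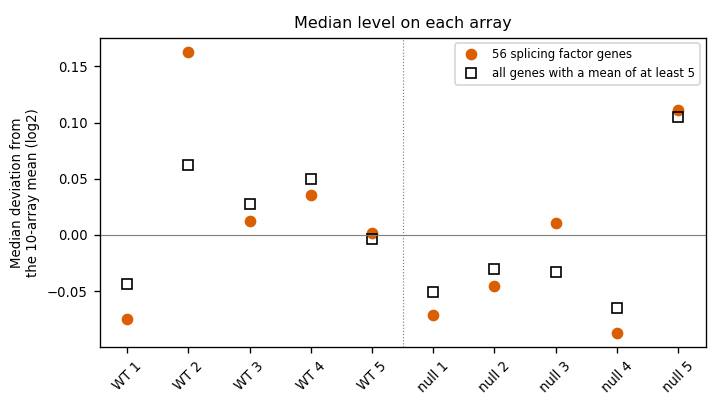
Median deviation from the 10-array mean, in log2 units, for the 56 splicing factor genes (filled circles) and for all 4921 genes with a mean of at least 5 (open squares) on each array. The splicing factor genes exceed the others most on wild type array 2 (0.16 beside 0.06), and on null array 5 both stand near 0.11.

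Spliceosome genes outside these symbols were counted from 8 lists, 75 of whose 94 genes were measured. Of the 75, 6 were lower at an unadjusted limma p under 0.05 (8%, beside 2.61% of all genes and 5.2% of those with a mean of at least 5) and 2 were higher (2.67%, beside 1.33% of all genes), 44 lay below 0, the median was -0.02, and 0 passed an adjusted p. The list of U2 and branch point proteins had 3 of 10 lower and 1 higher. Its lowest p belonged to Phf5a, a small SF3B subunit, which was dim and differed by 0.15 (SE 0.05). The 3 lower genes of that list were Puf60, Sf1 and Cherp, at -0.21 (SE 0.07), -0.29 (SE 0.11) and -0.20 (SE 0.07), of which Sf1 is the protein that first binds the branch point. These 3 were named after their values were seen. Puf60 was the 1 gene of the list whose groups did not overlap, beside 0.686% of all genes.

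In the U1 and tri-snRNP list, 1 of 9 was higher and 1 lower: Eftud2, the GTPase of the U5 snRNP, differed by 0.22 (SE 0.07), and Snrnp70, the U1 70K protein, by -0.27 (SE 0.11). Cdc5l of the Prp19 complex differed by -0.18 (SE 0.08), with 1 of 15 of its list lower and 0 higher. Rbm25, an SR-related protein that binds RNA near alternative splice sites, differed by -0.29 (SE 0.12), with 1 of 13 lower and 0 higher. No gene passed the unadjusted threshold among 7 LSm proteins, 6 of the SMN complex, 11 hnRNP-like proteins and 4 second step and release helicases, whose lowest p values belonged to Lsm10 (0.10), Gemin7 (-0.10), Ewsr1 (-0.22) and Dhx16 (0.18), each given with its difference.

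Of the tissue's markers, 2 of 14 neuron genes had a mean under 5 (Camk2a and Rbfox3) and Snap25 stood at 13.17, but 5 of 8 cortical excitatory neuron genes were under 5 (Neurod2, Cux2, Fezf2, Bcl11b and Foxp2), while Neurod6 stood at 8.84. Of the 14 neuron markers, 6 were lower at an unadjusted limma p under 0.05 (42.9%, beside 2.61% of all genes and 5.2% of those with a mean of at least 5) and 0 higher, with a median of -0.13, and their summed signal ran from 15.38 to 15.53 in wild type and from 15.20 to 15.45 in null arrays on the log2 scale. Of 11 oligodendrocyte markers 3 were lower (27.3%), with a median of -0.17 and sums of 14.48 to 14.89 in wild type and 14.39 to 14.58 in null. Of 11 astrocyte markers 1 was lower and of 9 endothelial markers 1 was lower, while 0 of 8 cortical excitatory neuron, 0 of 11 microglia, 0 of 2 blood and 0 of 8 striatal and choroid plexus markers passed in either direction. The groups did not overlap for Nefh, a neurofilament, at -0.43 (SE 0.07), or for the myelin gene Mbp, at -0.23 (SE 0.07), both lower in null arrays and with adjusted limma p values of 0.822 and 0.999. That is 1 of 14 neuron and 1 of 11 oligodendrocyte markers, beside 0.686% of all genes. The part of these cell types in the splicing factor values was not tested, and in bulk tissue fewer cells of a type and less RNA per cell cannot be told apart. The difference between the 3′ and 5′ probe sets of the array's Gapdh control was 0.11 ± 0.15 (SD, n = 5) in wild type and 0.03 ± 0.07 (SD, n = 5) in null arrays (exact permutation p = 0.325), and correlations between arrays ran from 0.994 to 0.999.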

How the data were processed

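RNA from the cerebral cortex of each of 10 mice was hybridised to an Affymetrix mouse expression array. The authors converted the scans to log2 signal with GC-RMA (per the labels, GCRMA, version not given in the sources used here), which subtracts background by probe sequence, quantile normalizes and summarises each probe set; the deposited log2 values were used without further scaling. Signal below about 5 lies near the array's background, which narrows differences there. The array holds 22690 probe sets, 64 of them controls that entered no test. Of the 22626 tested, 20380 were annotated to 1 gene, 691 to several and 1555 to none, and 20351 matched a RefSeq gene, from which current symbols were taken. The 15 probe sets of similar symbols with several genes were left out.

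Groups came from the array labels. limma 3.58.1 in R 4.3.3 (lmFit, eBayes) was fitted to all tested probe sets, with Benjamini-Hochberg adjustment over all of them, and likewise to within-gene differences. Permutation tests enumerated all 252 splits and were two-sided. Other steps used Python 3.11.15, scipy 1.17.1 and matplotlib 3.10.9. The fits were tested on simulated data. Precision is limited by the 5 arrays per group. A limma p weighs a group difference against the spread between these animals, moderated over all probe sets. The main fit did not use the littermate pairs.

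Genes were named by rule: an unadjusted p under 0.05; the 3 brightest of each role; any difference beyond 1.4-fold (none); the 8 genes with the smallest p among within-gene pairs; those on chromosome 7; the 3 with the widest wild type range; and the smallest p of each list. The genes and lists were chosen with earlier results of these data known. Alternatives were a replicate block, median centring, quantile normalization, a mean of at least 5, a floor of 4, a trend and robust prior, array weights, the methods' t-test, all probe sets and leaving out each array.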

Additional observations from a re-analysis of the deposited data

Results flagged for a closer look

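In 72 groups of 5 arrays, for the 35 named probe sets and the family median, 6 had an array whose gap to its nearest neighbour took up more of the group's range than Dixon's 95% value of 0.71 allows. Chance flags about 1 in 20 groups that are chosen without regard to their values. That rate does not hold here, because some of these probe sets were named by their wild type range or by a pair's p. The groups also share arrays, so the count of flags has no test. Wild type array 2 gave 3 of the 6: U2af1l4 1434305_at was at 7.35 beside 7.72 to 7.79 on the other wild type arrays, Hnrnpu 1423050_s_at at 12.10 beside 11.70 to 11.81, and Hnrnpdl 1428225_s_at at 6.05 beside 5.08 to 5.33. Wild type array 1 gave 2, with Prpf39 1452688_at at 4.51 beside 4.26 to 4.28 and Hnrnpf 1456664_x_at at 8.97 beside 9.83 to 10.04. Null array 5 gave Prpf39 1452688_at at 3.44 beside 4.38 to 4.75.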

How the results depend on the processing

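No setting gave a splicing factor gene past an adjusted p of 0.05, in limma or the methods' t-test. The count lower at an unadjusted p under 0.05, 2 as reported, was 1 with a floor at 4, a mean of at least 5, quantile normalization, the replicate block or the methods' t-test, and 4 over all probe sets. The share of all genes lower, 2.61% as reported, was in that order 1.53%, 3.52%, 1.78%, 3.63% and 1.9%. Over all probe sets it was 2.43%. Array weights also gave 2, beside 3.97% of all genes, but they were Srsf1 and Hnrnpd in place of Prpf39 and Prpf40b. Leaving out each array gave 0 to 6, beside 1.83% to 5.96% of all genes. The count higher, 0 as reported, was 3 under quantile normalization (Hnrnpc, Snrpb and Sf3b3), and leaving out each array gave 0 to 1. The share of all genes higher, 1.33% as reported, was 2.7% under quantile normalization and 0.96% to 2.15% with each array left out. The median difference stayed negative in each setting, at -0.015 under quantile normalization, where 32 of 56 genes lay below 0 and all genes with a mean of at least 5 had a median of 0.01, and from -0.11 to -0.04 with each array left out. Of within-gene pairs, 1 as reported, array weights gave 3, quantile normalization and the replicate block 2, a mean of at least 5 and the methods' t-test 0, and leaving out each array 0 to 4. The share over all pairs was given for the main fit only. Why the counts moved was not tested. Replicate numbers were not shown to pair the animals: same-numbered arrays deviated together with correlations of 0.54, 0.07, 0.10, 0.22 and 0.10, and 1 of 5 numbers matched best with its own. With the replicate block, Prpf39 1428172_at kept its difference of -0.44 and its unadjusted call and Prpf40b was no longer past the unadjusted threshold. Of 623 values of 35 named probe sets under the alternatives, 576 kept their sign, and the 47 that turned or came to 0 belonged to 14 probe sets without a call in either setting.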

Other observations

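Null arrays 4 and 5 were the lowest of the 10 on 11 of the 103 splicing factor probe sets with a mean of at least 5 (10.7%), beside 115 of all 7827 probe sets of that brightness (1.47%). This pattern was noticed in the values and has no test of its own, and probe sets of a gene are not independent. By gene it covered 8 of 48 (16.7%) beside 104 of 4921 (2.11%): Hnrnpa2b1, Hnrnpdl, Hnrnph1, Hnrnpu, Prpf38b, Prpf39, Srsf1 and Srsf11. By the brightest probe set alone it covered 4 of 48 (8.33%) beside 77 of 4921 (1.56%). Among genes of the spliceosome lists it covered 4 of 49 (8.16%), namely Luc7l2, Luc7l3, Snrnp70 and Tardbp. Hnrnpa2b1 1433830_at stood at 7.92 and 7.91 on the 2 arrays and at 8.55 or above on the other 8, whereas the gene's brightest probe set, 1420365_a_at, read 11.12 and 11.56 there within a range of 11.12 to 11.65. For the median of all brighter genes, null array 5 was high and null array 4 low. Why the 2 arrays were low together on these probe sets was not tested.

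Of the 15 probe sets left out for listing several genes, 4 were annotated to Snurf and Snrpn together, the imprinted locus that encodes the neuronal Sm protein N. The brightest of them, 1421063_s_at, had a mean of 12.93 and differed by 0.06 (SE 0.10). Probe set 1415896_x_at spanned 1.42 over the 10 arrays, with the replicate 3 arrays of both groups lowest, and differed by 0.03 (SE 0.28). The 4 probe sets shared by Hnrnpa3 and a predicted gene differed by -0.18 to 0.00.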
